A study of Mus musculus with 4 samples.

Results

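The folliculin complex, the Rag GTPases and the TFE transcription factors were followed as a set of 9 genes, Flcn, Fnip1, Fnip2, Rraga, Rragc, Rragd, Tfeb, Tfe3 and Mitf, chosen by name out of 55487 gene IDs in the deposited count table. Each name matched 1 Ensembl ID, and all 9 genes had enough reads to be tested. The cells were group 2 innate lymphoid cells (ILC2s) of the mouse colon, lymphocytes without antigen receptors that make type 2 cytokines. They were sorted and kept in culture with the alarmin-type cytokines IL-33 and IL-25 and the growth cytokines IL-7 and IL-2, and were either left as controls (2 libraries) or given FK866 for 16 h (2 libraries). FK866 blocks NAMPT, the enzyme that recycles nicotinamide into NAD+, and the contrast asks how gene expression differs when that enzyme is inhibited. Strain, age, number of animals, drug dose and what the control cultures received are not stated in the labels.

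As background, the Rag GTPases are small GTP-binding proteins that sit on the lysosome as pairs, RagA or RagB with RagC or RagD, and bring the growth kinase complex mTORC1 to the lysosome when amino acids are plentiful. Folliculin, held in a complex with FNIP1 or FNIP2, is a GTPase-activating protein for RagC and RagD, and in that state mTORC1 can phosphorylate TFEB and TFE3 and keep them in the cytoplasm. When folliculin or mTORC1 is inactive, TFEB, TFE3 and MITF enter the nucleus and bind E-box sequences in genes of lysosomes and autophagy, and genes of the folliculin and Rag families are themselves among their known targets. This control acts on proteins and their location, which transcript counts do not measure.

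The promoters of 4 of the genes are shown because 3 of them changed in expression and because 2 hold the E-box core that TFE factors bind. RefSeq promoter windows (GRCm38.p6, 250 bases before to 50 bases after a start site) were found for all 9 genes, 14 windows in all, since Tfeb and Mitf have 3 starts each and Tfe3 has 2. The sequences below are the parts that lie before the start in both RefSeq and GENCODE, 5′ to 3′ on the strand of the gene. Capitals mark the E-box core CACGTG or the cAMP response element TGACGTCA. The positions are chr11:59810040-59810289 (minus strand) for Flcn, chr11:54437929-54438178 (plus) for Fnip1, chr4:86575423-86575667 (plus) for Rraga and chr4:123917183-123917432 (plus) for Rragc.
Flcn: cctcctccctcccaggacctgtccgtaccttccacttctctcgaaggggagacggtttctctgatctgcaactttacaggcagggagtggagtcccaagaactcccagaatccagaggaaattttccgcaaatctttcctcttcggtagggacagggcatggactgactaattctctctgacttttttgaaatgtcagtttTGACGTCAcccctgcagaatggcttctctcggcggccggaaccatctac
Fnip1: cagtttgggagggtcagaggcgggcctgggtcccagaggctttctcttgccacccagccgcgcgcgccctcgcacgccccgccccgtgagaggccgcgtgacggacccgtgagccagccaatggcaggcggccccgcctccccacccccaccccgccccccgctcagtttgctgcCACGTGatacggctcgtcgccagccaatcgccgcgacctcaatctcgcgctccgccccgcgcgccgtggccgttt
Rraga: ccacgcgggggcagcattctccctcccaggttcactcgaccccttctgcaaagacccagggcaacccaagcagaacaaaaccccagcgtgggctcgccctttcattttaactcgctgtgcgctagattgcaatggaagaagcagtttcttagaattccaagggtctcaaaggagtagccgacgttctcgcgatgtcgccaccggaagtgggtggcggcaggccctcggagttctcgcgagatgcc
Rragc: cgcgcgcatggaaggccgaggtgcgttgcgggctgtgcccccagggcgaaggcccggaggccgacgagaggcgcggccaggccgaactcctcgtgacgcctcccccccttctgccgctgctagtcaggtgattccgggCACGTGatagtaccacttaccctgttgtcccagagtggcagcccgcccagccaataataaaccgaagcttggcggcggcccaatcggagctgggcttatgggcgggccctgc

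CACGTG was present in the windows of Fnip1, where it begins 75 bases before the start, and of Rragc, where it begins 112 bases before. It occurred in 7.15% of all 32851 RefSeq promoter windows. The related E-box CATGTG (14.2% of windows), the ATF4-type element TGATGNAA (3.97%) and the FOXO-type element GTAAACA (3.65%) were in none of the 14 windows, on either strand. TGACGTCA, which was searched only after the sequences had been read, was in the Flcn window, beginning 49 bases before the start, and in 1 window of Mitf, against 1.79% of all windows. None of these letter strings overlaps another in the printed sequences, and a match describes the letters only. The windows were mostly rich in G and C: 13 of 14 lay above the median of all windows, 52.7% G+C, with Fnip2 highest at 78.0% and the same Mitf window lowest at 40.0%.

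Across the 4 libraries, between 27617750 and 37841233 counts fell in genes. Expression is given as CPM, the counts of a gene relative to the size of its library, scaled with the TMM method. A gene was called when its Benjamini-Hochberg adjusted p over all 19194 genes tested was under 0.05 in the quasi-likelihood test of edgeR. ILC2 markers (10 genes, among them Gata3 and Il1rl1) summed to 4375 to 5172 CPM in each library. Of these markers, 3 of 10 were called between the groups, Rora higher (log2 fold change 1.70) and Il13 (-1.49) and Id2 (-0.89) lower, as was 1 of 4 ILC3 markers, Il23r (2.05). The part of these markers in the results was not tested. Gata3 was at 1082 and 947 CPM in the controls and at 842 and 699 CPM in FK866, and was not called. The markers of B cells, of mast cells and basophils, of myeloid cells and of NK cells summed to at most 6.71 CPM in any library, those of T cells to 19.8 to 21.2 CPM and those of epithelium to 25.8 to 54.5 CPM, with Krt8 at 0 throughout. The lists of ILC3s and of stroma and endothelium were higher, 85.9 to 271.1 and 143.6 to 227.1 CPM, almost all of it from Il22 and from Pecam1. FK866 replicate 2 had more gene IDs at 10 counts or more than the other libraries, 22461 against 17152 to 18667. Its part in the results below was not tested beyond leaving it out. In these bulk libraries, fewer expressing cells and less RNA per cell cannot be told apart.

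Of the 9 genes, the 3 that encode the folliculin complex rose in FK866, 1 Rag gene (Rraga) fell, and the other 2 Rag genes and the 3 TFE factors did not pass the test. The 4 calls are 44.4% of the 9 genes, beside 13.2% of all genes tested (5.31% higher and 7.89% lower). The 9 genes were chosen with earlier results of these data known, so the difference between these shares was not tested. The 2 groups did not overlap in CPM for 6 of the 9 genes, 5 of them higher and 1 lower in FK866, beside 57.7% of all genes tested, 28.4% higher and 29.3% lower. The median log2 fold change of the 9 genes was 0.51, and that of all genes tested was 0.03.

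**Figure D1:**
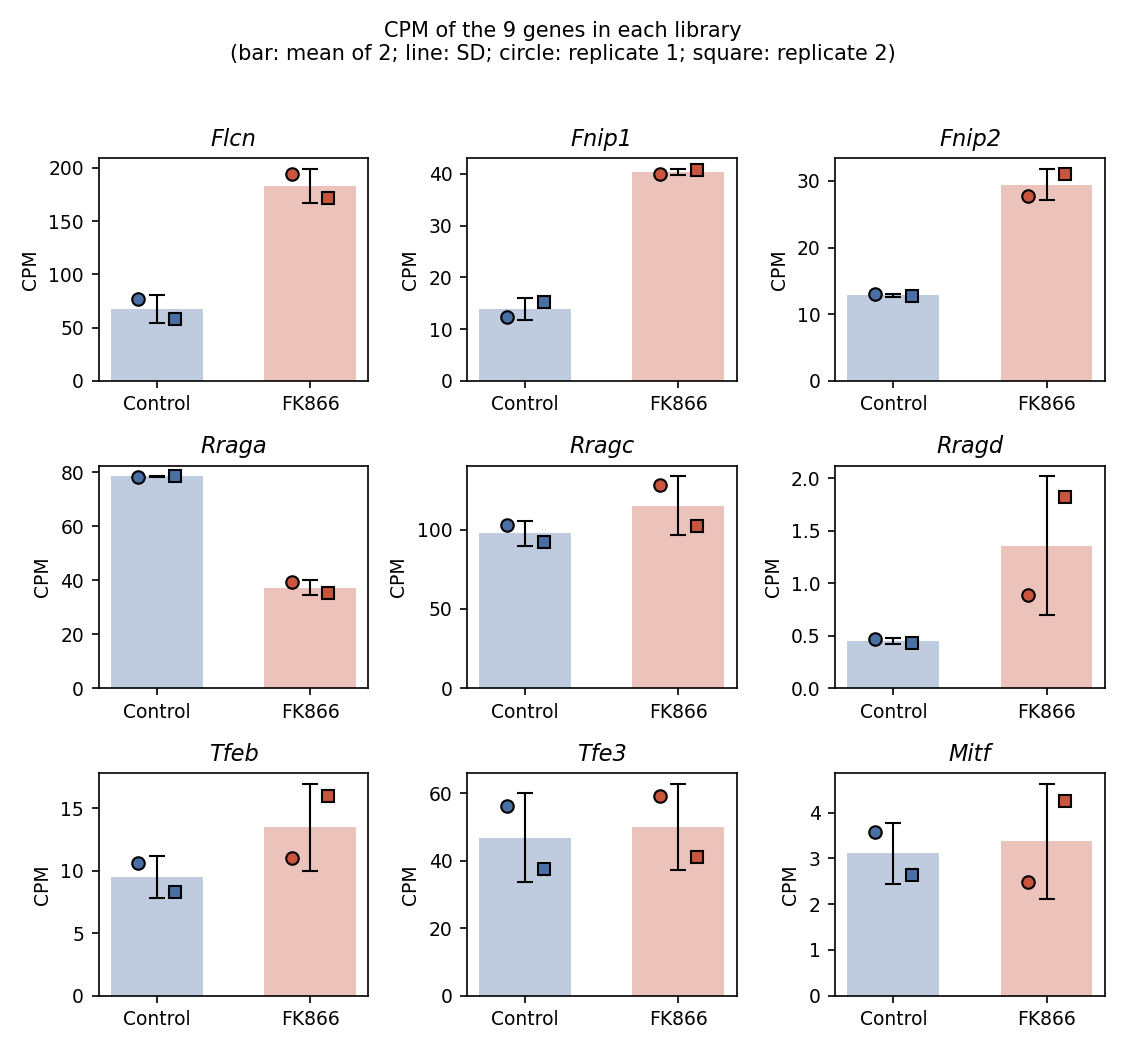
CPM (vertical axes, each from 0) of each of the 9 genes in the 2 control and 2 FK866 libraries; bars are means, lines are SDs, circles are replicate 1 and squares replicate 2. Flcn, Fnip1 and Fnip2 are higher and Rraga is lower in both FK866 libraries, while Rragc, Tfe3 and Mitf overlap between the groups.

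Flcn (ENSMUSG00000032633, GRCm38 chromosome 11, 59791408 to 59810016, minus strand) encodes folliculin, the catalytic subunit of the complex. It stood at 76.5 and 58.0 CPM in control replicates 1 and 2 and at 194.3 and 171.6 CPM in FK866 replicates 1 and 2. The lower FK866 library was thus 2.24 times the higher control. The means were 67.2 ± 13.1 and 182.9 ± 16.1 CPM (SD, n = 2 each), a log2 fold change of 1.44 ± 0.17 (SE, edgeR adjusted p = 0.00212). By its unadjusted p, Flcn ranked 133 among the 19194 genes tested, and by its log2 fold change it ranked 1482 from the top.

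Fnip1 (ENSMUSG00000035992, chromosome 11, 54438199 to 54518235, plus strand) encodes the folliculin-interacting protein 1, known for its need in lymphocyte development. It rose from 12.4 and 15.3 CPM to 40.0 and 40.8 CPM, with nearly equal FK866 libraries and no overlap. Its log2 fold change was 1.54 ± 0.19 (SE, edgeR adjusted p = 0.00252).

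Fnip2 (ENSMUSG00000061175, chromosome 3, 79455974 to 79567796, minus strand) encodes the other partner of folliculin, the folliculin-interacting protein 2. It rose from 13.02 and 12.7 CPM to 27.8 and 31.1 CPM, a log2 fold change of 1.20 ± 0.19 (SE, edgeR adjusted p = 0.00665). The lower FK866 library was 2.13 times the higher control.

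The 3 subunit transcripts therefore moved in the same direction and by similar amounts, with 95% intervals of the fold change of 2.09 to 3.54 for Flcn, 2.17 to 3.93 for Fnip1 and 1.70 to 3.09 for Fnip2. Summed per kilobase of exon, the 3 transcripts went from 20.99 and 17.1 CPM per kb in the controls to 53.9 and 49.2 CPM per kb in FK866. The transcript shares stayed within a narrow range: Flcn held 78.5% to 84.3% of that sum in the 4 libraries, Fnip1 8.29% to 12.6% and Fnip2 6.16% to 8.89%. The protein complex was not measured. The ratio of Fnip1 to Fnip2 per kb of exon was 1.12 and 1.42 in the controls and 1.69 and 1.54 in FK866, without overlap. An exact two-sided permutation test of that ratio gave p = 0.333, the smallest that 2 libraries against 2 can give.

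Among the Rag genes, Rraga (ENSMUSG00000070934, chromosome 4, 86575668 to 86577285, plus strand), which encodes RagA, fell. Its levels were 78.3 and 78.4 CPM in the controls and 39.2 and 35.4 CPM in FK866, so that the lower control was 2.00 times the higher FK866 library. The log2 fold change was -1.07 ± 0.15 (SE, edgeR adjusted p = 0.00387). Rragb, its X-linked paralogue and not among the 9 genes, was at 5.81 and 10.6 CPM in the controls and at 3.67 and 3.71 CPM in FK866 (log2 fold change -1.15 ± 0.35, edgeR adjusted p = 0.0646). Per kb of exon Rraga held 91.2% to 94.96% of the transcripts of the 2 genes in the 4 libraries, and their sum was 51.0 and 53.1 CPM per kb in the controls and 25.8 and 23.5 CPM per kb in FK866.

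Rragc (ENSMUSG00000028646, chromosome 4, 123917446 to 123936997, plus strand), which encodes RagC, was at 103.0 and 92.1 CPM in the controls and 128.2 and 102.0 CPM in FK866, with overlapping groups. Its log2 fold change of 0.24 ± 0.16 (SE) did not pass (edgeR adjusted p = 0.368), and the 95% interval of the fold change ran from 0.924 to 1.51. Of its exon bases, 7.90% are shared with the antisense gene 4930535I16Rik, and unstranded reads there may belong to either.

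Rragd (ENSMUSG00000028278, chromosome 4, 32983037 to 33022180, plus strand), which encodes RagD, was close to the limit of detection, with 17 and 14 counts in the controls and 24 and 62 counts in FK866, or 0.468, 0.429, 0.890 and 1.82 CPM. The groups did not overlap, but the log2 fold change of 1.59 ± 0.69 (SE) did not pass (edgeR adjusted p = 0.172) and was 1.00 without FK866 replicate 2. Rragd made up 0.293% and 0.300% of the Rragc and Rragd transcripts per kb in the controls and 0.446% and 1.14% in FK866.

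With Rraga lower and Rragc overlapping, the balance of the 2 abundant Rag transcripts differed between the groups. The ratio of Rragc to Rraga per kb of exon was 0.637 and 0.569 in the controls and 1.59 and 1.40 in FK866, a difference of 1.31 on the log2 scale. Rraga was thus the more abundant of the pair in each control and Rragc in each FK866 library. The exact permutation p was 0.333, again the smallest this design allows.

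The TFE factors showed no change that passed the test. Tfeb (ENSMUSG00000023990, chromosome 17, 47737030 to 47792419, plus strand), which encodes the factor best known for lysosomal genes, was at 10.7 and 8.28 CPM in the controls and 11.01 and 15.9 CPM in FK866. The lower FK866 library was only 1.03 times the higher control. The log2 fold change was 0.51 ± 0.27 (SE, edgeR adjusted p = 0.260), and 0.24 without FK866 replicate 2.

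Tfe3 (ENSMUSG00000000134, chromosome X, 7762560 to 7775202, plus strand) encodes a broadly expressed relative and was at 56.1 and 37.5 CPM in the controls and 59.0 and 41.0 CPM in FK866. The groups overlapped, and in each of them replicate 1 was the higher library. The log2 fold change was 0.09 ± 0.24 (SE, edgeR adjusted p = 0.856), with a 95% interval of the fold change of 0.735 to 1.55.

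Mitf (ENSMUSG00000035158, chromosome 6, 97807052 to 98021349, plus strand), known from melanocytes and mast cells, was low at 3.58 and 2.64 CPM in the controls and 2.48 and 4.26 CPM in FK866 (log2 fold change 0.12 ± 0.41, SE, edgeR adjusted p = 0.894). The 95% interval of its fold change, 0.574 to 2.06, leaves room for a change in either direction. The markers of mast cells and basophils summed to 0.0826 and 1.56 CPM in the controls and 0.630 and 1.88 CPM in FK866. Tfec, the remaining relative, had 2 to 23 counts per library (log2 fold change 1.45 ± 1.14, edgeR adjusted p = 0.466).

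Per kb of exon, Tfe3 held 67.5% to 72.4% of the TFE transcripts in 3 libraries and 55.0% in FK866 replicate 2, where Tfeb held 34.9% against 22.04% to 24.3% elsewhere. Divided by the longest transcript, Tfe3 held 58.6% to 63.5% in those 3 libraries, and in FK866 replicate 2 Tfeb (47.4%) stood above Tfe3 (45.1%). FK866 replicate 2 had the highest level of Tfeb, Mitf, Rragd and Tfec of the 4 libraries. It is also the library with the most gene IDs detected.

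**Figure D2:**
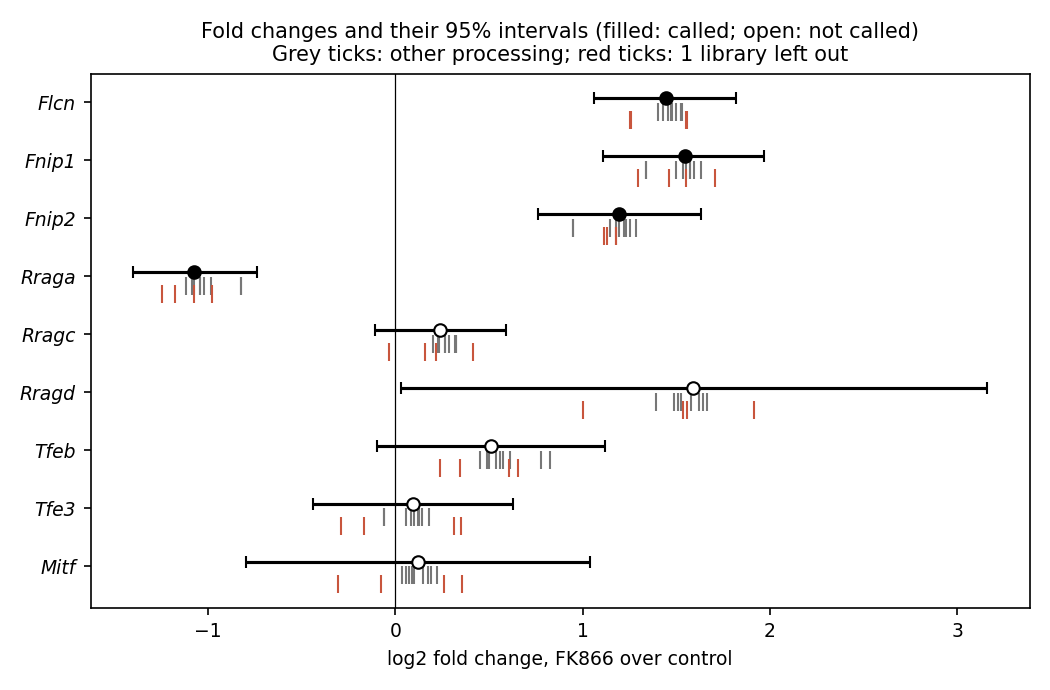
Log2 fold change of FK866 over control (horizontal axis) for each gene with its 95% interval, filled where called at an adjusted p under 0.05, with the values under other processing (grey ticks) and with 1 library left out (red ticks). Flcn, Fnip1, Fnip2 and Rraga lie away from 0 throughout, and Rragc, Tfe3 and Mitf fall on either side of 0 as libraries are left out.

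Compared per kb of exon, the order of the levels in the controls was Rraga (48.4 ± 0.03 CPM per kb, SD), Rragc (29.2 ± 2.31), Flcn (15.6 ± 3.03), Tfe3 (5.06 ± 1.42), Fnip1 (1.95 ± 0.29), Tfeb (1.67 ± 0.30), Fnip2 (1.54 ± 0.03), Mitf (0.502 ± 0.107) and Rragd (0.0867 ± 0.0053). Fnip1 and Tfeb, and Tfeb and Fnip2, overlapped in their libraries, and the other neighbours did not. In FK866 the order began with Flcn (42.3 ± 3.73 CPM per kb), followed by Rragc (34.5 ± 5.53), Rraga (23.0 ± 1.67), Fnip1 (5.68 ± 0.08), Tfe3 (5.40 ± 1.38), Fnip2 (3.52 ± 0.28), Tfeb (2.38 ± 0.61), Mitf (0.545 ± 0.203) and Rragd (0.262 ± 0.128), where only Fnip1 and Tfe3 overlapped among neighbours. Flcn thus went from place 3 to place 1 and Rraga from place 1 to place 3. The lower places depend on the length used: divided by the longest transcript, Tfeb stood above Fnip1 in the controls (4.04 against 2.22 CPM per kb), and in FK866 Tfe3 (7.91) stood above Fnip1 (6.46), which overlapped with Tfeb (5.75). The first 3 places were the same with either length.

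**Figure D3:**
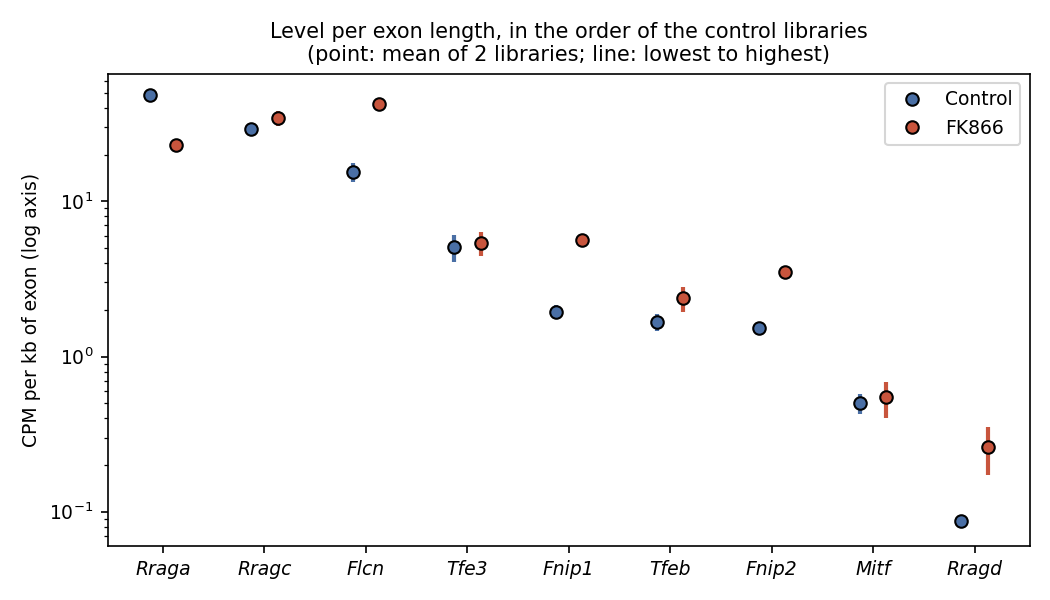
Level of each gene in CPM per kb of exon (vertical log axis), with the mean of 2 libraries as a point and the range as a line, ordered by the controls. Rraga leads in the controls at 48.4 CPM per kb and Flcn in FK866 at 42.3 CPM per kb.

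The genes whose profile over the 4 libraries lay closest to that of Flcn, by the Euclidean distance between log2 CPM values centred on each gene's mean, were Itgav (distance 0.109), which encodes the integrin αV, Nfil3 (0.128), a transcription factor needed for innate lymphoid cells, and Rel (0.130), which encodes the NF-κB subunit c-Rel. They were taken from 8278 protein-coding genes at or above 3 in average log2 CPM, and with 4 libraries the distance says little beyond a rise of like size. Their log2 fold changes were 1.48, 1.34 and 1.46.

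Of 9 related genes (the other Rag and TFE paralogues, the Ragulator subunits that anchor the Rag proteins to the lysosome, the arginine sensor Slc38a9 and the ubiquitin ligase gene Rnf152), 0 rose and 1 fell, 11.1%. It was Lamtor4, from 19.9 and 19.9 to 10.3 and 10.3 CPM (log2 fold change -0.95, edgeR adjusted p = 0.0190), a call lost without FK866 replicate 2 (-0.93) or with the trend on transcript length and GC content removed (-0.58). The list median was -0.20, and of all genes tested 13.2% were called. Without control replicate 1, 1 gene of this list was called higher and 3 lower.

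A list of 13 genes held the GATOR and KICSTOR complexes, which control the nucleotide state of RagA and RagB. It also held the arginine sensor CASTOR1 and its paralogue CASTOR2. Of these genes 1 rose and 1 fell (15.4%, beside 13.2% of all genes tested), and the median was -0.10. Castor1 fell from 53.6 and 86.3 to 28.6 and 33.7 CPM (log2 fold change -1.17). Castor2 rose from 4.46 and 6.23 to 12.3 and 12.7 CPM (1.23). The 2 paralogues thus differed in direction.

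Among 10 genes of mTORC1, the TSC complex and RHEB, 1 rose and 1 fell (median 0.16). Of all genes tested, 13.2% were called. Both called genes of the list encode parts of the TSC complex that restrains RHEB. Tsc1 rose from 50.8 and 40.9 to 97.2 and 84.3 CPM (log2 fold change 0.98, edgeR adjusted p = 0.00779). Tbc1d7 fell from 31.3 and 24.8 to 11.6 and 9.15 CPM (-1.44, adjusted p = 0.00629). Tsc2, the subunit that acts on RHEB, had a log2 fold change of 0.21 that did not pass. With scaling by library totals or upper quartiles, 2 genes of this list were called higher and 1 lower. The same counts came with the stricter filter. They also came with the replicate number as a block, alone or with the trend on length and GC removed.

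Of 7 tested genes of AMPK and its activating kinase, 1 fell (14.3%, beside 13.2% of all genes tested, median -0.01). It was the regulatory subunit gene Prkag2, at 17.7 and 20.3 CPM in controls and 11.1 and 11.4 CPM in FK866 (log2 fold change -0.76, edgeR adjusted p = 0.0461). That call was lost under 8 of the 13 alternatives, and 14.5% of its exon bases overlap antisense genes. None of 4 genes of calcineurin, which dephosphorylates TFEB, and of the lysosomal calcium channel MCOLN1 passed, either in edgeR or in DESeq2 (0 at an unadjusted p under 0.05, 0.09 as the median log2 fold change). Without control replicate 1 or without FK866 replicate 1, edgeR called 1 of the 4 lower. The 2 most abundant were Ppp3ca (log2 fold change 0.18) and Ppp3r1 (0.01).

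Genes known as TFEB targets moved in part. Of 13 such genes of autophagy, not counting the 9 genes, 6 rose and 0 fell (46.2%), with a median of 0.31. Of all genes tested, 5.31% were called higher and 13.2% in either direction. The gene lists were chosen with earlier results of these data known, so differences between their shares and those of all genes were not tested. Vps11, which encodes a core subunit of the vesicle tethering complexes, rose from 62.1 and 48.5 to 137.3 and 153.1 CPM (log2 fold change 1.39, edgeR adjusted p = 0.00213). The autophagy receptor gene Sqstm1 rose from 434.7 and 382.4 to 985.3 and 789.0 CPM (1.12), with 17.3% of its exon bases shared with a gene on the other strand. Atg9b (1.39) and Uvrag (0.72) were the next by adjusted p, that of Uvrag being lost without FK866 replicate 2 (0.68), and Ulk1 (0.85, not called without FK866 replicate 1) and Gabarapl1 were the other called genes. Of the 3 listed genes whose proteins coat the autophagosome, Gabarapl1 rose, from 22.8 and 11.5 to 77.1 and 35.7 CPM (1.72, edgeR adjusted p = 0.0245; 0.96 without FK866 replicate 1, and not called by DESeq2), while Map1lc3b and Gabarap had log2 fold changes of 0.15 and -0.12 that did not pass. Of the exon bases of Gabarapl1, 28.3% are shared with a gene on the other strand. Uvrag shares 17.6% and Atg9b 7.45% of exon bases with another gene.

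Of 30 lysosomal genes that carry TFEB-bound CLEAR elements, 6 rose and 2 fell (26.7%, median 0.23), beside 13.2% of all genes tested. The chloride transporter gene Clcn7 rose from 59.9 and 43.8 to 99.9 and 99.2 CPM (log2 fold change 0.94). The sialidase gene Neu1 also rose (0.72), Neu1 not being called without FK866 replicate 1 (0.63). Gusb, for β-glucuronidase, fell from 198.0 and 206.9 to 85.8 and 91.4 CPM (-1.19). The cathepsin genes Ctsb and Ctsd had log2 fold changes of 0.01 and 0.02 that did not pass. Only 2 genes of this list were called higher without FK866 replicate 1, 3 without FK866 replicate 2 and 3 with no filter on low counts, against 9 without control replicate 1, 10 under a stricter filter and 10 once the trend on length and GC was taken out.

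A last list held 5 other genes linked to TFE3 activity or to loss of folliculin, of which 1 rose and 1 fell. These calls were 40.0% of the list, beside 13.2% of all genes tested. Gpnmb, a glycoprotein gene used as a readout of TFE activity, was low in the controls, at 2.95 and 1.10 CPM, and stood at 13.3 and 14.8 CPM in FK866. Its log2 fold change of 2.79 ± 0.43 (SE, edgeR adjusted p = 0.00587) was the largest rise among the called genes of these lists. It was 3.57 without control replicate 1 and 2.25 without control replicate 2. The markers of myeloid cells summed to 1.21 and 2.18 CPM in the controls and 5.265 and 3.53 CPM in FK866, with none called. Their part in the rise of Gpnmb was not tested. Asah1, for acid ceramidase, fell from 53.0 and 60.2 to 29.0 and 29.9 CPM (-0.94). Ppargc1a and Ppargc1b, coactivators of mitochondrial genes, did not pass (0.50 and -0.54).

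**Figure D4:**
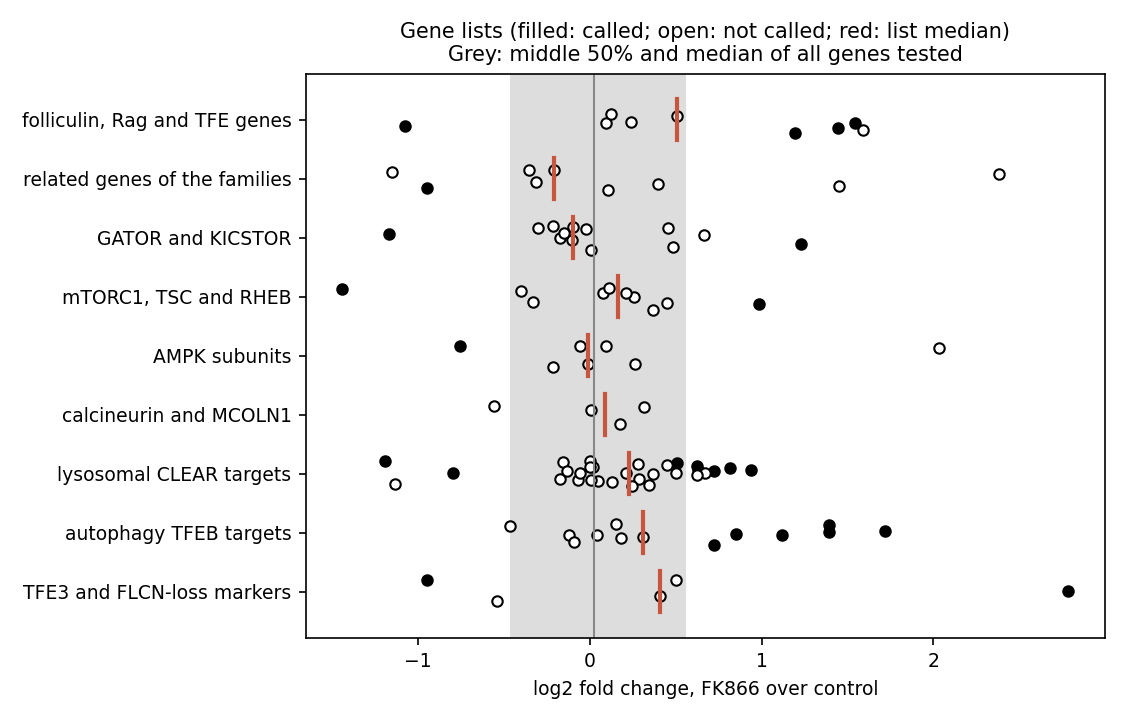
Log2 fold change of FK866 over control (horizontal axis) for every tested gene of each list, filled where called at an adjusted p under 0.05, with the list median in red and the middle 50% and median of all genes tested in grey. Vertical scatter within a list has no meaning. Called genes lie on both sides of 0 in most lists, and the 6 called autophagy genes all lie to the right.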

How the data were processed

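Total RNA of ILC2s was turned into full-length cDNA with the SMART-Seq HT kit and into paired-end libraries with Nextera XT, per the labels' protocols. The authors deposited raw counts per Ensembl gene ID for 4 libraries, the unit being read from the table. Reads had been handled with cutadapt 1.9 and HISAT2 2.2.1 on build mm10, per the submitters' processing notes. No source used here gives the counting program, its annotation or its strand setting. This chemistry does not mark the strand.

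Symbols, positions and lengths came from GENCODE M21 (GRCm38, the build mm10), with 55227 of 55487 IDs matched, and promoter sequences from RefSeq (GRCm38.p6). Genes were filtered with filterByExpr (minimum count 10, minimum total 15), which kept 19194, scaled by TMM and tested with edgeR 4.0.16 (glmQLFit and glmQLFTest, two-sided, treatment as the only term, R 4.3.3) over all of these genes. CPM divide by the library's counts in tested genes times its TMM factor. The SE is the absolute log2 fold change over the square root of F, and 95% intervals use the t distribution with 8.72 degrees of freedom of the fit. Alternatives were DESeq2 1.42.0, other scalings and filters, each library left out, the replicate number as a block, and a trend on transcript length and GC content removed. The fit was tested on simulated counts of 19194 genes with the library sizes of FK866 and control. It recovered 68 of 100 genes with a 2-fold change and 100 of 100 with a 4-fold change. Of its 178 calls, 10 were of unchanged genes. The changed genes were drawn only from those above a minimum mean level. Rragd, Mitf and Tfec lie below that level, so recovery at their levels was not tested. Far fewer genes changed in the simulation than were called in the data.

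The 9 genes, the gene lists and the tests were chosen with earlier results of these data known. Genes named from each list are the called ones with the smallest adjusted p, up to 4, or the 2 with the highest mean level in lists without a call, and other genes named were added after their values were seen. Of the genes this rule takes, 1 is not reported here. Replicates are separate libraries, which differed by more than sampling noise (chi-square over its degrees of freedom 35.8 for controls and 19.0 for FK866). The labels do not say whether separate cultures or animals were used, so the p-values reflect how far these libraries differ, which may be technical variation alone.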

Additional observations from a re-analysis of the deposited data

How the results depend on the processing

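The calls of Flcn, Fnip1, Fnip2 and Rraga held under all 13 alternatives, with log2 fold changes of 1.25 to 1.56, 1.30 to 1.71, 0.95 to 1.29 and -1.24 to -0.83. Rragd (1.00 to 1.92, not tested under the stricter filter) and Mitf (-0.30 to 0.36) were called under none, nor was Tfe3 (-0.29 to 0.35). Rragc (-0.03 to 0.42) and Tfeb (0.24 to 0.83) were called only with the replicate block and the removal of the trend on length and GC combined, at 0.32 and 0.78, which makes 5 of the 9 genes called higher. With 1 library left out, 3 of the 9 were called higher and 1 lower each time, and the lone library of a group was assumed to vary like the others.

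Over all genes, 2534 were called, 1020 higher and 1514 lower. Leaving out 1 library gave 1727 to 3726 calls, 661 to 1457 higher and 828 to 2462 lower. The lowest counts came without FK866 replicate 1 (661 higher) and without FK866 replicate 2 (828 lower), and the highest count of lower genes without control replicate 1 (2462). The stricter filter gave 1866 higher. The replicate block gave 5256 calls (2197 higher, 3059 lower), and the block with the trend on length and GC taken out gave 4727 (2341 and 2386). Same-numbered libraries deviated together with a correlation of 0.234 across genes. On principal component 2, an axis of joint variation with 32% of the variance, control and FK866 replicate 1 stood at 39.8 and 57.8. Control and FK866 replicate 2 stood at -62.0 and -35.6. With 2 pairs and no label tying the numbers to a culture, same-numbered libraries were not treated as pairs in the main fit. Among the lists, the GATOR and KICSTOR genes called higher were 1 as reported, 2 with DESeq2, 3 with scaling by library totals or upper quartiles and 4 with the stricter filter or the replicate block, and the lysosomal genes called higher were 10 with the block and 18 with the block and the trend taken out. The related genes were 1 higher and 3 lower with the block and 2 and 2 with the trend also taken out, and of the calcineurin and MCOLN1 genes 1 was lower with the block and 1 higher with the trend also taken out. Rragd had at most 62 counts in a library and Tfec at most 23.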
